A study of Homo sapiens with 4 samples.

Results

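The multidrug ABC transporters are membrane pumps that use ATP to carry drugs, drug conjugates and natural metabolites out of the cell. The members studied here were ABCB1, ABCC1, ABCC2, ABCC3, ABCC4, ABCC5 and ABCG2, taken by name whatever their values. They made up 7 of the 34755 genes on the array and were read by 12 of its 58201 probes, each printed as 1 spot. A further 41 genes of the wider ABC family were on the same array. The cells were SUM149, a line from a triple-negative inflammatory breast cancer, treated with Ricolinostat (ACY1215), an inhibitor of the histone deacetylase HDAC6. After 24 hours of attachment, cells were left untreated or received 2.5 uM of the drug for 3, 6 or 12 hours, and total RNA was hybridised to 2-colour Agilent arrays. The dye Cy5 marked the sample and Cy3 marked a reference that all 4 arrays shared, labelled as SUM149 RNA pooled over the untreated and treated cells.

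There was 1 array per time point and there were 0 vehicle arrays, so no test between conditions was possible, no value has a replicate error, and an effect of the drug cannot be told apart from time in culture. The spread between spots of the same probe in their change from the untreated array was used as a technical scale. The SD of the log2 change from this spread was 0.157, 0.120 and 0.116 for the 3-hour, 6-hour and 12-hour arrays. It came from 300 probes with at least 9 spots each and holds no variation between cultures. Few of these probes were dim: 8, 8 and 7 had a mean log2 intensity below 8, with SDs of 0.133, 0.144 and 0.169. For dim transporter probes the scale is thus less certain. Since RNA was taken from whole cultures, fewer cells carrying a transcript and less of that transcript per cell cannot be told apart.

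Efflux pumps of this family are known from tumours that resist several unrelated drugs at the same time. ABCB1, or P-glycoprotein, exports taxanes, anthracyclines and vinca alkaloids. The ABCC members are the multidrug resistance proteins, which mostly carry anionic drugs and conjugates with glutathione, glucuronate or sulphate, and ABCG2, the breast cancer resistance protein, exports mitoxantrone and topotecan. Transcription of ABCB1 is known to rise with some histone deacetylase inhibitors, which makes it the member of first interest in cells given such a drug.

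Between 63.3% and 67.0% of genes were well above background in the sample channel of each array, a flag of the scanner software. The median Cy5 signal was 36 to 40 scanner units over a local background of 24, and no spot was saturated. Signals in scanner units are given before normalization, and the arrays differed in brightness. The 75th percentile of Cy5 was 246 units on the untreated array and 273, 228 and 212 units at 3, 6 and 12 hours. All 5 epithelial markers were well above background in untreated cells, at 3387 to 41407.5 units, as were 3 of 5 basal markers. The spots of the other basal markers, KRT6A and KRT14, were outliers on the untreated array and were set aside. ESR1 and ERBB2 were at 199 and 253 units, and PGR was not well above background. The flag was also raised for all 4 leukocyte, all 3 endothelial and all 3 fibroblast markers, at 40 to 770 units, so a dim spot with the flag does not by itself show that the cells make the transcript. Damaged areas covered 3.38% of spots on the untreated array and 4.74% at 3 hours, and 0 of the transporter spots lay in them or were outliers.

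Of the 7 transporters, 6 were well above background in untreated cells and ABCB1 was not. Over all genes the share well above background in those cells was 63.9%. The main probes of ABCG2, ABCC4, ABCC2, ABCC1 and ABCC5 read 45, 86, 145, 186.5 and 470 units there. These readings lie within the 40 to 770 units of the flagged leukocyte, endothelial and fibroblast markers. For these genes the flag by itself does not show that the cells make the transcript. Levels are not ranked between genes, because signals of different probes depend on their sequences. Of the 12 probes, 9 passed that flag for both dyes on each of the 4 arrays, and these 9 gave the changes described here. The other 3 were both ABCB1 probes and the second ABCC2 probe.

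**Figure D1:**
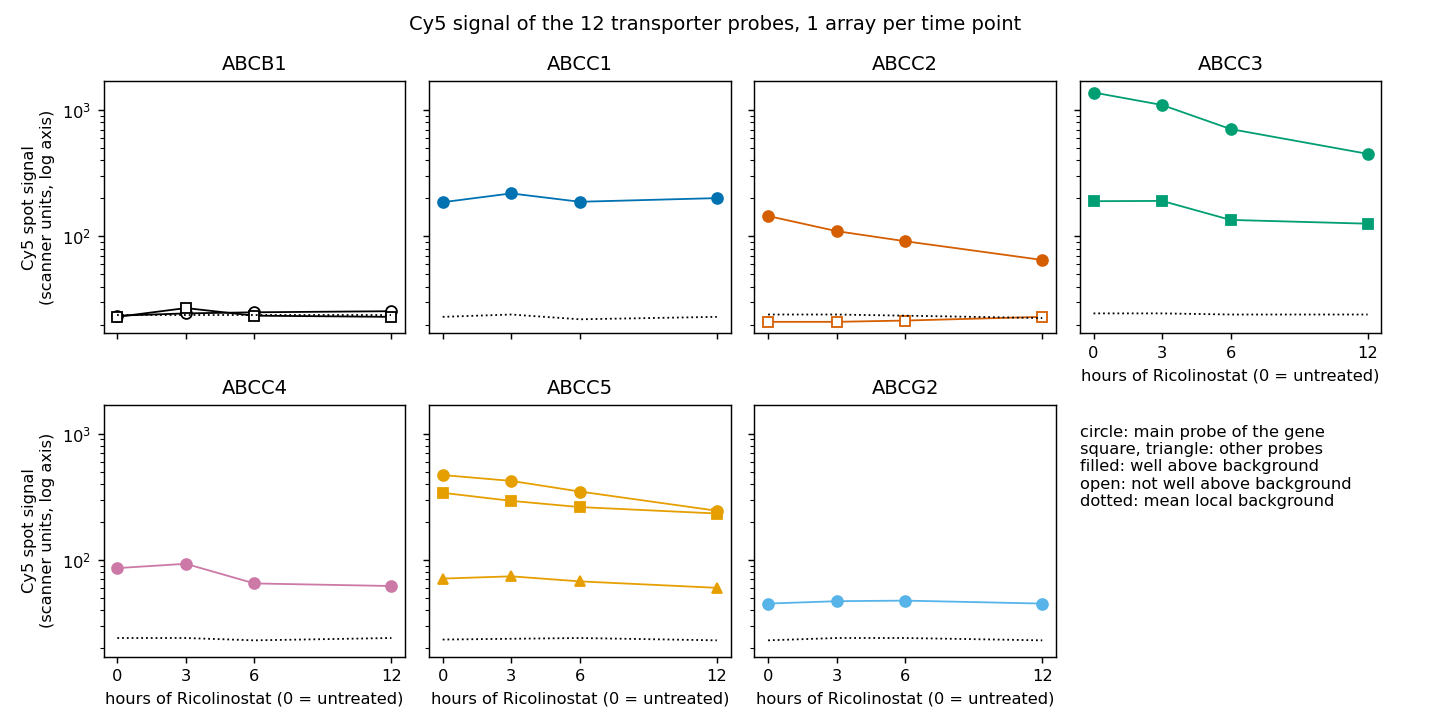
Cy5 spot signal before normalization, in scanner units on a log axis, against hours of Ricolinostat with 0 as untreated. The 12 transporter probes are shown, with 1 array per time point. The main ABCC3 probe goes from 1382 to 451 units, while the main ABCB1 probe stays between 23.5 and 25.5.

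ABCB1 was not detectable in the sample channel at any time. Its main probe, A_23_P82523 (NM_000927), read 23.5 units in untreated cells and 24.5, 25 and 25.5 units after 3, 6 and 12 hours, over a local background of 23 to 24. The 4 readings lay within a few units of background, so no fold change is given. The weaker criterion of a positive and significant signal over background was met at 3, 6 and 12 hours and not in untreated cells. The second ABCB1 probe, A_33_P3332414, designed on the same transcript, read 23, 27, 23.5 and 23 units at the same times and met the weaker criterion only at 3 hours. The main probe therefore had its highest signal at 12 hours and the second at 3 hours. At this signal a change of ABCB1 within the range below detection could not be seen: among spots well above background, the first percentile of Cy5 signal was 28 to 30 units on the 4 arrays.

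The reference channel of the main ABCB1 probe was brighter than the sample channel on every array. It read 59.5, 50, 64 and 63.5 units in Cy3 on the untreated, 3-hour, 6-hour and 12-hour arrays, and was well above background on all 4. The second ABCB1 probe read 34, 33.5, 28.5 and 30 units in Cy3. No SUM149 sample on the arrays reached the Cy3 signal of its own array for the main ABCB1 probe, although the label gives the reference as SUM149 RNA alone. The dyes have different brightness and background, and the reason for the gap was not tested.

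Some known regulators of these pumps bind in the window upstream of a transcription start. That window is shown for the member known to respond to deacetylase inhibitors and for ABCC2 and ABCC5. The latter genes had ratios lower by more than 1 technical SD at 12 hours and a window in the RefSeq table (GRCh38.p14). The capitals mark every match on either strand to 6 motifs. The GC box, searched as GGGCGG, is bound by SP1 and its relatives. The CCAAT box, searched by those letters, is bound by NF-Y. The TATA box was searched as TATAAA and positions the transcription machinery at some starts. The E-box was searched as CACGTG and is bound by factors such as MYC and USF. The xenobiotic response core, bound by AHR with its partner ARNT, was searched as GCGTG. The antioxidant response core, bound by NRF2, was searched as TGACNNNGC. Matches of different motifs overlapped in 0 places. Each run holds the 250 bases before the start, 5′ to 3′ along the gene's strand.
ABCB1, chr7:87600885-87601134, minus strand: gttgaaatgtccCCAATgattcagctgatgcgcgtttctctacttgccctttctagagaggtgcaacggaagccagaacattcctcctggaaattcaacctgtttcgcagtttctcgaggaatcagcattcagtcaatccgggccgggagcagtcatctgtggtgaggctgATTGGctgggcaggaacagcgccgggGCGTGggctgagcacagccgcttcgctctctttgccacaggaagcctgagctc
ABCC2, chr10:99782390-99782639, plus strand: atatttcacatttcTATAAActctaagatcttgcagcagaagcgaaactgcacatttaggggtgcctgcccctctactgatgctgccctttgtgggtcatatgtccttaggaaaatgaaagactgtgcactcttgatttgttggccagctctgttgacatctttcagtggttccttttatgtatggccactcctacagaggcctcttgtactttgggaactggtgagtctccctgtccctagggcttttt
ABCC5, chr3:184017885-184018134, minus strand: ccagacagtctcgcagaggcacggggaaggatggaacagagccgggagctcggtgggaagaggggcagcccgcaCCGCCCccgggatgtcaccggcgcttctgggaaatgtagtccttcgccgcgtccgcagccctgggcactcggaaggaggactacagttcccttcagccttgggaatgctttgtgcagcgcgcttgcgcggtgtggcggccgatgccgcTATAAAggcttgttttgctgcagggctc

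The ABCB1 window holds CCAAT boxes that begin at -238 and -79 from the start, the latter on the opposite strand, and a GCGTG at -53. NF-Y is a factor through which deacetylase inhibitors are known to act on this promoter. A CCAAT box was in 32.0% of the 35116 promoter windows of the table and a GCGTG in 32.2%, so neither is rare. The other ABCB1 window, chr7:87713296-87713545, holds 0 of the 6 motifs. The ABCC5 window has a GC box at -176 and a TATA box at -28, and the ABCC2 window has TATAAA at -236. Over all windows, 42.6% hold a GC box and 10.7% a TATA box. The windows of ABCC4 and ABCG2 were searched too. ABCC4 has 2 GCGTG and 1 antioxidant response core in a window of 80.4% G and C, against 55.6% for ABCB1. Of the 5 ABCG2 windows 2, which overlap, each hold 2 GC boxes, 1 E-box and 2 GCGTG. The ABCG2 window chr4:88158640-88158889 also holds 2 GCGTG. Over all windows, 10.9% hold an antioxidant response core and 6.3% an E-box. In all, 5 of the 7 transporters had a window in the table. A match to these letters is a description of the sequence and not a bound site.

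ABCC3 was the member with the largest change and the only one past 2-fold. ABCC3, also called MRP3, is a pump of the basolateral membrane that carries bile salts and glucuronides. Its main probe, A_23_P207507 (NM_003786, the first transcript variant), read 1382 units in untreated cells and 1100.5, 709 and 451 units after 3, 6 and 12 hours. The sample signal was lower at each later time, both in these units and after normalization. From untreated, its log2(Cy5/Cy3) ratio changed by -0.52, -0.61 and -1.01 at 3, 6 and 12 hours. The ratio was thus 2.02-fold lower at 12 hours. Each change was larger than 3 times the technical SD of its time point. At 12 hours 1.08% of the genes measured had a change as low or lower, against 2.65% at 3 hours and 3.94% at 6 hours.

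The second ABCC3 probe, A_33_P3298024 (NM_001144070, the second transcript variant), was dimmer and moved less. It read 190, 191, 135 and 126 units in Cy5 from untreated to 12 hours, and its log2 ratio changed by -0.09, -0.26 and -0.28. The 3-hour change was inside 1 technical SD, and those at 6 and 12 hours were outside it in the same direction as the main probe. Averaged over both probes the 12-hour change of ABCC3 was -0.65, which is short of 2-fold. The authors' own normalized table put the main probe at -0.99 at 12 hours, just short of 2-fold. Of the 6 settings that could move the transporters' values, that table included, 5 put it past 2-fold.

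ABCC2 and ABCC5 also had lower ratios at all 3 times, by less than 2-fold. ABCC2, or MRP2, is an apical pump known from the bile canaliculi of the liver, where it exports bilirubin glucuronides. Its main probe, A_23_P44569 (NM_000392), read 145 units in untreated cells and then 110, 91.5 and 65 units. The log2 ratio changed by -0.27, -0.22 and -0.39, and the last value is a 1.31-fold lower ratio. The size depended on the processing: the 12-hour change was -0.82 with a normexp offset of 1, -0.67 with median centring and -1.01, past 2-fold, with the scanner software's processed signals. The Cy3 signal of this probe was 986 to 1093 units, far above the sample on every array, and the reason was not tested. The second ABCC2 probe, A_33_P3389518 (ENST00000370434), read 21 to 23 units in Cy5 and 21 to 24 in Cy3 and was not well above background in either channel, so it gave no value.

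ABCC5, or MRP5, exports cyclic nucleotides and nucleotide analogues. Its main probe, A_23_P258221 (NM_005688), read 470 units in untreated cells and then 422.5, 348 and 245 units, lower at each later time. The log2 ratio changed by -0.12, -0.07 and -0.47. The first pair of these lay inside 1 technical SD, and the 12-hour value, a 1.38-fold lower ratio, lay outside it. At 12 hours 7.84% of genes had a change as low or lower, against 10.4% for the value of ABCC2. The second ABCC5 probe, A_33_P3298062 (NM_001023587), read 340, 293.5, 262 and 233 units and changed by -0.02, -0.19 and -0.29. The third, A_33_P3298057, designed on the same transcript as the second, read 71, 74, 67.5 and 60 units and changed by -0.13, 0.04 and 0.04. The first and second probes were thus lower at 12 hours by more than 1 technical SD and the third was within it.

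**Figure D2:**
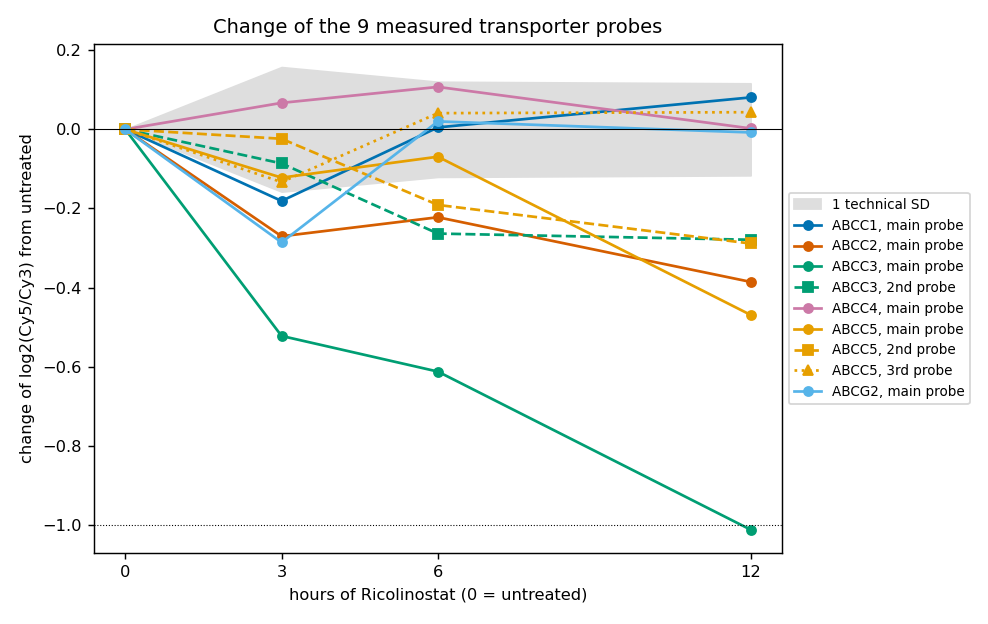
Change of log2(Cy5/Cy3) from untreated, against hours of Ricolinostat, for the 9 transporter probes that passed the background flag for both dyes on every array. The grey band is 1 technical SD and the dotted line at -1 is 2-fold lower, which only the main ABCC3 probe reaches, at -1.01.

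ABCC1, ABCC4 and ABCG2 showed no change beyond 1 technical SD at 6 or 12 hours. ABCC1, or MRP1, exports leukotriene C4 and glutathione conjugates of drugs. Its probe, A_24_P227831 (NM_004996), read 186.5, 219, 188 and 201 units in Cy5 from untreated to 12 hours. The log2 ratio changed by -0.18, 0.00 and 0.08. The sign at 12 hours turned to -0.11 when arrays were centred on their median in place of loess, and the Cy5 channel alone gave 0.28.

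ABCC4, or MRP4, exports cyclic nucleotides and prostaglandins. Its probe, A_24_P16913 (NM_005845), read 86, 93, 65 and 62 units in Cy5 and 90, 83, 69 and 77 units in Cy3. The log2 ratio changed by 0.07, 0.11 and 0.00. Both channels were dimmer on the 6-hour and 12-hour arrays than on the untreated array. The 12-hour change was below 0 with median centring, at -0.14, with the scanner software's signals, at -0.33, and with Cy5 alone, at -0.22.

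ABCG2 works as a dimer and is known as a marker of the side population in stem cells. Its probe, A_33_P3361067 (NM_004827), was dim, at 45, 47, 47.5 and 45 units in Cy5 and 45, 59, 46 and 52 units in Cy3. The log2 ratio changed by -0.29, 0.02 and -0.01. At 3 hours the sample signal hardly differed from that of untreated cells.

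Taking the main probe of each of the 6 measured transporters, 4 were lower by more than 1 technical SD at 3 hours, 2 at 6 hours and 3 at 12 hours, and 0 were higher by that much at any time. Past the same technical SD, 21.2%, 29.0% and 29.8% of all genes measured were lower, and 28.0%, 35.2% and 34.9% were higher. Of the 4 transporters at 3 hours, ABCC1 had a Cy5 signal that changed by 0.11 with a Cy3 change of 0.29, and ABCG2 had a Cy5 change of -0.02 with a Cy3 change of 0.26, so their lower ratios came with brighter reference spots. Past 2-fold, 0 of 6 were lower at 3 or 6 hours and 1 of 6, ABCC3, at 12 hours. Over all genes measured, the shares lower by 2-fold were 0.371% of 20761, 0.944% of 20340 and 1.12% of 20476 for the same times in order. At a threshold of 1.5-fold the 12-hour share of genes lower was 5.13%, and ABCC3 was again the only transporter that passed. In the other direction, 0 of 6 transporters were 2-fold higher at any time, against 1.71%, 2.81% and 2.34% of genes at 3, 6 and 12 hours. The median change of the 6 was -0.23, -0.03 and -0.20, and that of all genes was 0.01, 0.02 and 0.01. With 6 genes these shares and medians are descriptions.

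The change in each channel shows how far a ratio came from the sample. For ABCC3 at 12 hours the normalized Cy5 signal changed by -1.23 and the Cy3 signal by -0.22. For ABCC2 the corresponding values were -0.58 and -0.20, and for ABCC5 they were -0.58 and -0.11. For these 3 genes the Cy5 change was thus the larger. The normalized Cy3 signal was lower too, so the ratio changed less than Cy5. Before normalization the Cy3 spot of ABCC3 read 523 units on the untreated array and 482 at 12 hours. The same readings were 1093 and 1015 for ABCC2, and 611 and 603 for ABCC5. For ABCC4 both channels changed by -0.20 and the ratio by 0.00. For ABCC1 the values were 0.28 and 0.19.

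**Figure D3:**
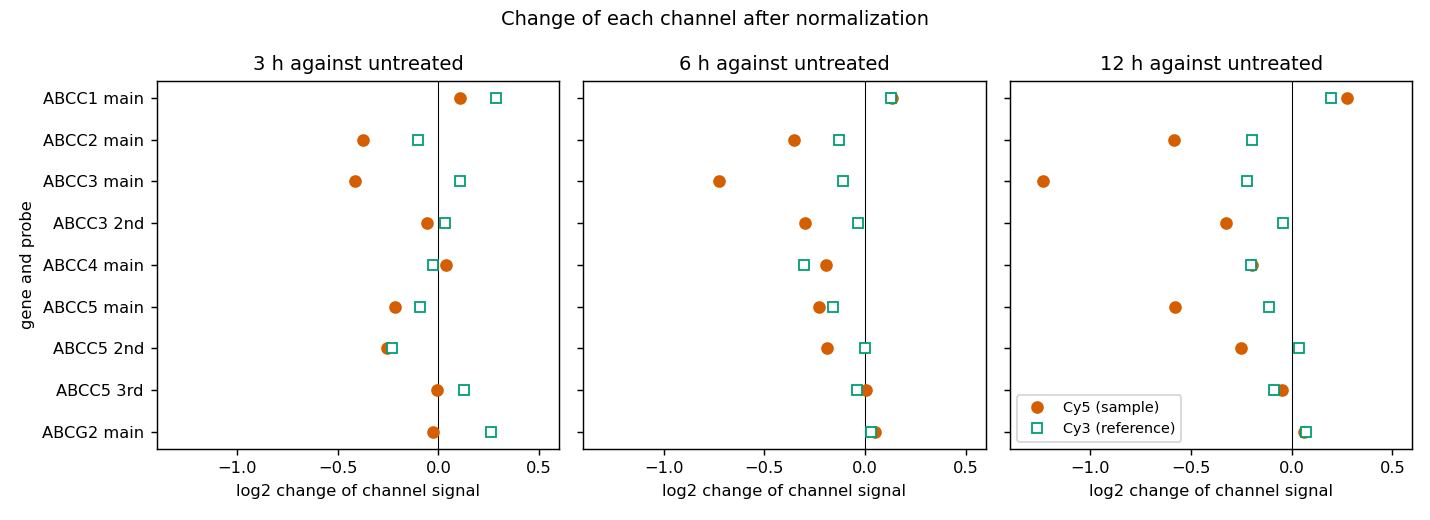
Log2 change from untreated of the normalized Cy5 (sample, filled) and Cy3 (reference, open) signal of each measured transporter probe, 1 panel per time point. At 12 hours the Cy5 point of the main ABCC3 probe lies at -1.23 and its Cy3 point at -0.22, while for ABCC4 the points coincide at -0.20.

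Of 8 other processing settings, 2 left every transporter value as it was, since loess without Aquantile keeps the ratio and the damaged areas held 0 transporter spots. In each of the other 6, ABCC2, ABCC3 and ABCC5 had a negative change at all 3 times. At 12 hours ABCC3 ranged from -1.37 to -0.99, ABCC2 from -1.01 to -0.39 and ABCC5 from -0.77 to -0.47. ABCC1, ABCC4 and ABCG2 had settings on both sides of 0 at 12 hours.

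**Figure D4:**
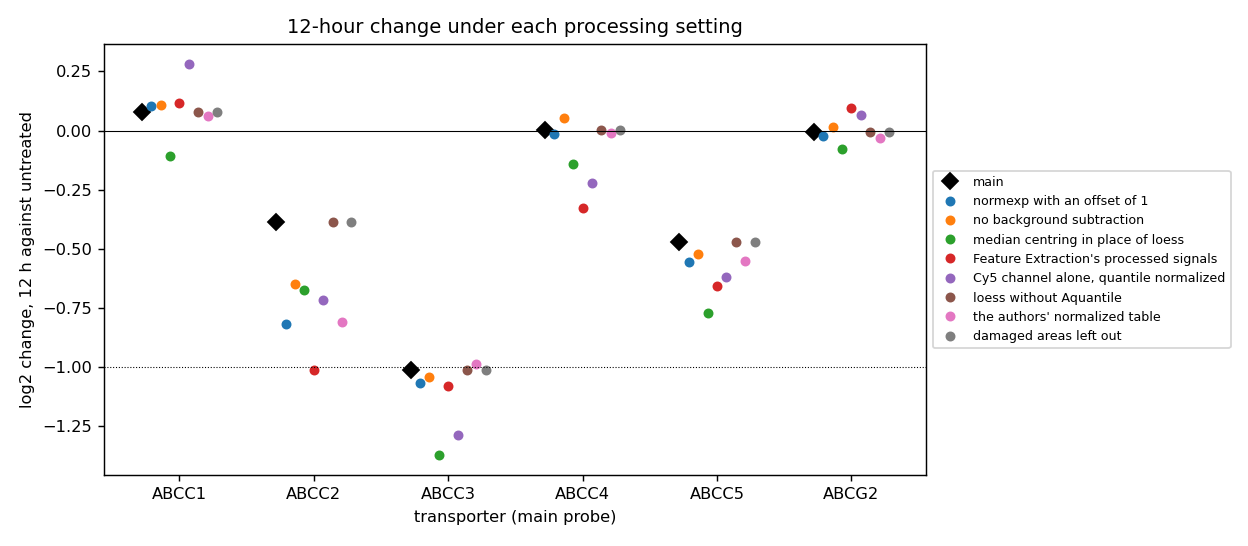
Log2 change of the main probe of each measured transporter at 12 hours, on the vertical axis, under the main processing (diamond) and 8 other settings (circles), of which 2 give the main value by construction. ABCC3 lies between -1.37 and -0.99 in all of them, and ABCC1, ABCC4 and ABCG2 have points on both sides of 0.

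The genes whose course over the 3 times was nearest to that of ABCC3, by Euclidean distance among 19887 genes, were ATF5 at 0.0379, CSF1R at 0.0627 and the non-coding lnc-DCTD-1 at 0.0903. ATF5, a stress-responsive transcription factor, changed by -0.49, -0.61 and -1.02. CSF1R, the receptor of a macrophage growth factor, changed by -0.54, -0.67 and -0.99. The distance rests on 3 changes that share the untreated array.

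In the main setting, 0 of the measured genes of the wider ABC family moved by 2-fold at any time. Of the other 41 ABC genes, 29 were well above background in untreated cells, 11 were not and TAP2 was set aside as an outlier spot. Over all genes the share well above background in untreated cells was 63.9%. Of the 28 that could be measured at 12 hours, 15 were higher and 13 lower, where 52.5% of all genes measured were higher. By 2-fold, 0 of them were higher or lower, against 2.34% and 1.12% of all genes measured. The median change was 0.10, 0.05 and 0.00 at 3, 6 and 12 hours. The largest change was that of TAP1, which carries peptides into the endoplasmic reticulum for antigen presentation: it read 3525.5 units in untreated cells and 4563 at 12 hours, and its ratio changed by 0.97.

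HDAC6, the target of the drug, had ratios that changed by -0.41, -0.25 and -0.51 at its main probe and by -0.25, 0.00 and -0.20 at its second. Both probes were below 0 at 3 and 12 hours, short of 2-fold.

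Uptake carriers bring drugs into the cell, against the direction of the pumps. Of 20 such genes 14 were detected in untreated cells, where 63.9% of all genes were. Of 13 measured at 12 hours 7 were higher and 6 lower, with 1 past 2-fold. That gene was SLC19A1, the reduced folate carrier that takes up methotrexate. It read 1087.5 units in untreated cells and 326 at 12 hours, and its ratio changed by -0.21, -0.70 and -1.10. Its second probe changed by -0.27, -0.40 and -0.51, the same way and short of 2-fold. The median of the carriers was 0.02, 0.07 and 0.05. Of all genes measured at 12 hours, 52.5% were higher and 1.12% were lower by 2-fold.

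Transcription factors and cofactors known to act on efflux genes were nearly all detected in untreated cells, 28 of 29, against 63.9% of all genes. The missing one was NR1I2, the xenobiotic receptor PXR. At 12 hours 16 of the 28 were higher and 12 lower, where 52.5% of all genes measured were higher, and the median change was 0.08. KEAP1, which holds the antioxidant factor NRF2 in check, changed by -0.89, -1.34 and -1.29 and was past 2-fold at 6 and 12 hours. AHR, the dioxin receptor, changed by 1.12, 1.09 and 0.90 at its main probe and by 0.60, 0.69 and 0.82 at the other. The ratio was thus past 2-fold at 3 and 6 hours at 1 of its probes. The normalized Cy5 signal of that probe changed by only 0.27 at 3 hours and by 1.05 at 6 hours. The 3-hour value of the main AHR probe came from a damaged area of that array, and at least 1 spot of the KEAP1 probe lay in such an area. JUN, a subunit of AP-1, changed by 1.08, 1.04 and 0.98 and was past 2-fold at 3 and 6 hours. Of all genes measured, 1.71% and 2.81% were higher by 2-fold at 3 and 6 hours. The shares lower by 2-fold were 0.944% and 1.12% at 6 and 12 hours.

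Glutathione genes supply the conjugates that ABCC pumps export. Of the 18 on the array, 17 were measured at 12 hours, with 10 higher, 7 lower and 0 past 2-fold, and GSTZ1 had the largest change, at -0.73. Among 10 genes that anchor or modify these pumps at the membrane, 9 were measured at 12 hours, of which 8 were higher. Of all genes measured at that time, 52.5% were higher, and 2.34% were higher by 2-fold. The median of the anchors was 0.21, 0.23 and 0.38. The 3-hour value of RDX in this list came from a damaged area, and the 3-hour median was 0.20 with damaged areas left out. At 12 hours the median was 0.050 with median centring, which put the median of all genes at -0.16, and 0.15 with Cy5 alone. PIM1, a kinase known to phosphorylate ABCG2, was the only anchor gene past 2-fold. It read 696.5 units in untreated cells and 1177 at 12 hours, and rose by 1.07, 1.33 and 1.32.

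**Figure D5:**
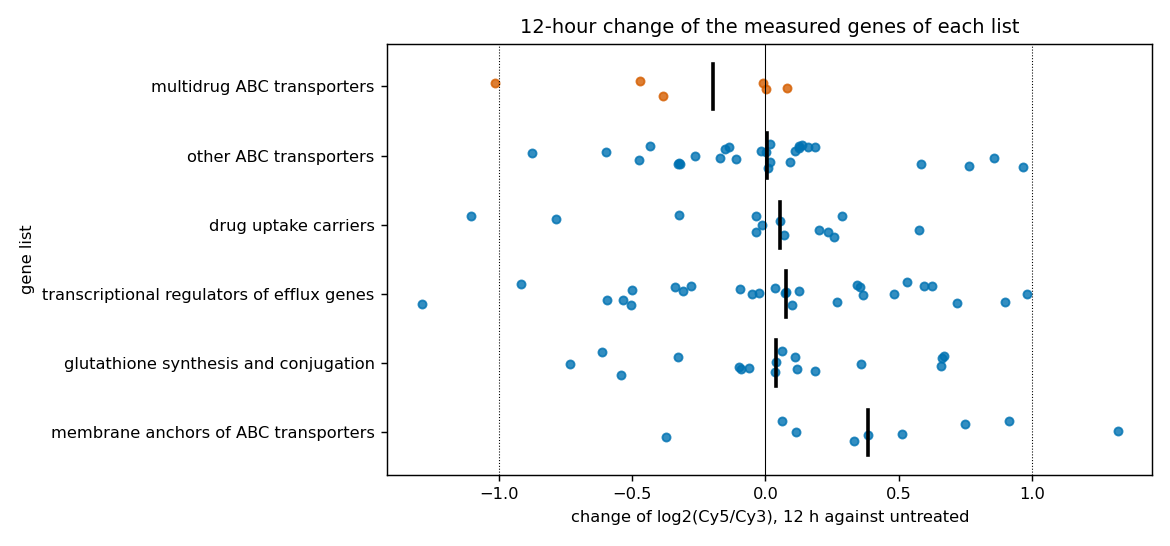
Change of log2(Cy5/Cy3) from untreated to 12 hours, on the horizontal axis, for each measured gene of the transporters and of the 5 other gene lists, 1 point per gene, with dotted lines at 2-fold. ABCC3 at -1.01 is the lowest transporter, the 28 other ABC genes lie within 2-fold, and PIM1 at 1.32 is the only gene of the lists above 2-fold.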

How the data were processed

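RNA of SUM149 cells, untreated or given 2.5 uM Ricolinostat for 3, 6 or 12 hours, was measured on 4 arrays, 1 per time point. For each array the authors deposited spot and background intensity from Feature Extraction 12.0.1.1 (array design on hg19), a log10 ratio of Cy5 over Cy3 and quality flags. A deposited table of the authors gives log2 ratios after normalization, whose method is not given in the sources used here. Median spot intensity was corrected for local background by normexp (offset 50), outlier spots were set aside, arrays were normalized by loess and then Aquantile in limma 3.58.1 (R 4.3.3), and spots of a probe were averaged. Symbols were taken from that table, and a gene was read from its probe of highest average Cy3 signal. A gene was measured when both dyes passed the background flag on both arrays compared, and called at a log2 change of 1 (2-fold). Normalization was tested on simulated data. Counts, medians and promoter motifs were computed in Python 3.11.15 with numpy 2.4.6 and pandas 2.3.3.

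All 7 transporters were named, with HDAC6 and, from 5 gene lists, any gene past 2-fold (at most 6 a list) and the gene with the largest 12-hour change. For likeness, the 3 genes nearest to ABCC3 were named, ABCB1 being below detection. The members and lists were chosen with earlier results of these data known. Alternatives covered background correction, normalization, the Cy5 channel alone, the authors' table, damaged areas, the choice of probe, the threshold and the filter on dim probes. With 1 array per time point the number of arrays limits the precision. Protein sequences were not analysed here.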

Additional observations from a re-analysis of the deposited data

How the results depend on the processing

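At 12 hours, median centring in place of loess gave log2 changes of -0.11 for ABCC1, -0.67 for ABCC2, -1.37 for ABCC3, -0.14 for ABCC4 and -0.77 for ABCC5, and -0.20 for the median of the other ABC genes. It moved the median of all genes to 0.08, -0.08 and -0.16 at 3, 6 and 12 hours, and changes under it are to be read against these values. With the Cy5 channel alone the 12-hour changes were 0.28 for ABCC1, -0.71 for ABCC2, -1.29 for ABCC3, -0.22 for ABCC4 and -0.62 for ABCC5. With the scanner software's processed signals they were -1.01 for ABCC2, -0.33 for ABCC4 and -0.66 for ABCC5, with a median of -0.12 for the other ABC genes. ABCC2 was at -0.82 with a normexp offset of 1, -0.65 without background subtraction and -0.81 in the authors' table. The cause of these shifts was not tested. Other probes at 12 hours gave -0.28 for ABCC3, -0.29 and 0.043 for ABCC5 and 0.13 for ABCC2, whose second probe was not above background. The mean over probes was -0.13 for ABCC2, -0.65 for ABCC3 and -0.24 for ABCC5. Transporters lower by 2-fold or more at 12 hours numbered 2 with the processed signals and 0 in the authors' table. At a threshold of 4-fold the number was 0. At 1.5-fold, 1 was lower at 6 hours. Genes lower by 2-fold or more at 12 hours numbered 230 in the main setting, 519 with an offset of 1 and 705 with median centring. They numbered 707 with the processed signals, 370 with Cy5 alone and 451 in the authors' table. With the threshold itself changed, 1050 were lower by 1.5-fold or more and 12 by 4-fold or more. Genes higher by 2-fold or more at 12 hours numbered 479 in the main setting and 263 with median centring. The balance of higher and lower genes past 2-fold thus turned with the centring. Under each of the detection criteria 6 transporters passed in untreated cells, which by itself does not show that the cells make each transcript. No paired analysis was possible because there was 1 array per time point. Spots near background limit ABCB1, ABCG2 and ABCC4, whose small changes cannot be resolved.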

Other observations

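Some listed genes were well above background in Cy5 only after treatment. Their normalized Cy5 signal was compared with their own untreated signal, which was not well above background. These fold values hold for Cy5 alone and are not lower bounds on the change of the transcript. ABCA1, the cholesterol exporter, read 28 units in untreated cells and 51, 58.5 and 42.5 units at 3, 6 and 12 hours. Its normalized Cy5 signal was 1.30-fold, 1.54-fold and 1.33-fold higher at these times. Its log2(Cy5/Cy3) ratio changed by 0.65, 0.83 and 0.54. SLCO1B1, an uptake carrier known from the liver, read 21.5 units in untreated cells and 60 at 12 hours, 1.76-fold higher in normalized Cy5. Its log2 ratio changed by 0.39, against 0.82 for Cy5 alone. SLC28A1, another uptake carrier, read 23 units in untreated cells and 31 at 12 hours, 1.16-fold higher in normalized Cy5. Its log2 ratio changed by 0.17. These values come from 1 array each.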
